A study of Mus musculus with 12 samples.

Results

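The genes described here are 35 mouse genes that encode glutamate receptor subunits and the membrane proteins that assemble with them. They were taken by symbol from a table of 56748 genes measured in 12 brains. They comprise 4 pore subunits of AMPA receptors, 7 of NMDA receptors, 5 of kainate receptors, 1 delta subunit, 7 metabotropic receptors, 9 auxiliary subunits of AMPA receptors and 2 of kainate receptors. RNA came from adult C57BL/6 mice in 3 arms of 4, each with 2 females and 2 males and 1 library per mouse. The LPS+DMA arm received lipopolysaccharide (LPS, the endotoxin of Gram-negative bacteria, which sets off innate immunity) into the abdominal cavity at 0.5 mg/kg daily for 7 days, together with DMA (N,N-dimethylacetamide, a small polar solvent also used in drug formulation), likewise given daily by that route. The LPS arm received LPS alone, and the PBS arm received phosphate-buffered saline. Brains were taken on day 7. The labels give no dose of DMA and name no vehicle injection in the LPS arm.

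Glutamate is the main excitatory transmitter of the brain. AMPA receptors carry most of the fast current at its synapses, NMDA receptors open when glutamate release coincides with depolarisation and admit calcium, and kainate receptors adjust release and excitability. Metabotropic receptors signal through G proteins, and auxiliary subunits set where ionotropic receptors go and how long their channels stay open. Which subunits are expressed differs between brain regions: Grin2c and Gria4, for example, are prominent in the cerebellum, and Grin2b and Cacng8 in the cortex and hippocampus.

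Depth lay between 27.5 and 41.4 M reads per library (M, megareads). Every brain is labelled as whole tissue, yet the markers of brain regions differed between libraries. Gabra6, the granule-cell GABA receptor subunit of the cerebellum, was measured at 0, 0, 0 and 0.1699 FPKM (fragments per kilobase of gene, scaled between libraries as described under processing) in LPS+DMA, 114, 0, 15.6 and 90.5 in LPS and 74.6, 0, 0 and 0 in PBS, in the order female 1, female 2, male 1, male 2, which is kept throughout. It reached 1 FPKM in 4 libraries, namely LPS female 1, LPS male 1, LPS male 2 and PBS female 1, and was at or near 0 in the other 8. The summed level of 8 cerebellar markers was 9.35 to 17.2 FPKM in LPS+DMA, 15.3 to 676 in LPS and 14.2 to 456 in PBS. That of 8 cortical and hippocampal markers was 76.3 to 152 FPKM in LPS+DMA, 9.52 to 92.0 in LPS and 58.3 to 109 in PBS, and that of 8 hindbrain markers 0.243 to 8.09 in LPS+DMA, 2.02 to 111 in LPS and 0.423 to 13.2 in PBS, with 3 of those 8 listed at 0 in every LPS+DMA library. The sum of 8 striatal markers was 50.8 to 988 FPKM in LPS+DMA, 89.3 to 298 in LPS and 73.2 to 114 in PBS. In LPS+DMA against LPS, 0 of 8 cerebellar markers, 6 of 8 cortical and hippocampal markers (higher), 1 of 8 striatal markers (higher), 4 of 7 tested hindbrain markers (lower), 5 of 8 choroid plexus markers (lower), 5 of 8 microglial markers (lower) and 0 of 5 red blood cell markers passed the limma test at an adjusted p under 0.05. Of all 19571 genes tested, 5.79% were higher and 3.88% lower. Passing or not, all 8 cerebellar markers were negative (median log2 change -3.11). All 8 striatal markers were positive (median 1.78) and all 5 red blood cell markers negative (median -1.51). Of 8 neuronal markers 2 were higher and 2 lower, of 8 astrocyte markers 1 was higher and 2 lower, and 1 of 8 mature oligodendrocyte and 1 of 6 precursor markers were lower. The choroid plexus sum was 22.6 to 497 FPKM in LPS+DMA, 251 to 2000 in LPS and 37.5 to 408 in PBS. In such bulk samples, fewer cells of a type and less RNA per cell cannot be told apart.

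Of the 35 genes, 34 passed the filter of 0.5 FPKM in 2 libraries. Grm6, the receptor of retinal bipolar cells, had 0 reads in every library, which allows a level of up to 0.0127 to 0.0213 FPKM (the level of 3 reads, counting error only). Averaged over the 12 libraries and per length, the highest levels were those of Gria1 (63.9 FPKM), Cnih2 (63.7 FPKM) and Cacng7 (58.4 FPKM). These 3 means do not differ beyond the spread, since single libraries ranged from 29.4 to 101.1 FPKM for Gria1, 17.6 to 114 for Cnih2 and 50.2 to 71.8 for Cacng7. Gria2 (32.7 FPKM) and Grin1 (32.4 FPKM) followed. The lowest levels among the tested genes were those of Grin3b (0.392 FPKM, 5 to 144 reads per library), Grm8 (1.69 FPKM) and Grik1 (2.48 FPKM).

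**Figure D1:**
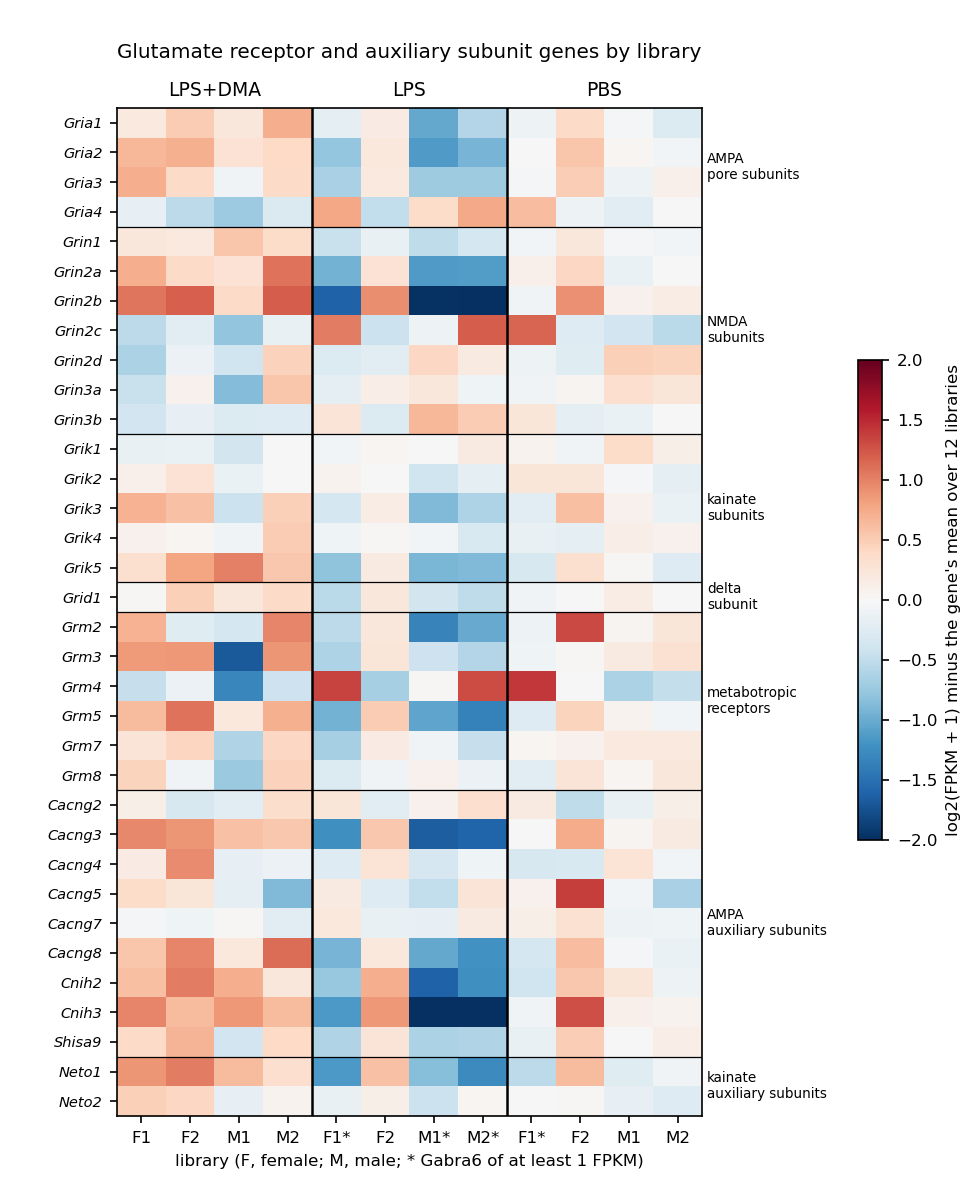
Rows are the 34 tested genes grouped by role and columns are the 12 libraries. Colour gives log2(FPKM + 1) minus the gene's mean over the libraries, and asterisks mark the 4 libraries with Gabra6 of at least 1 FPKM. LPS columns F1, M1 and M2 are blue for most genes, while LPS female 2 resembles the LPS+DMA columns for Grin2b, Cacng3, Cnih2 and Cnih3, and Gria4, Grin2c and Grm4 are red in LPS F1 and M2.

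LPS+DMA against LPS asks what the addition of DMA changed in brains exposed to LPS. On the log2(FPKM + 1) scale, 13 of the 34 genes were higher in LPS+DMA and 0 were lower, where 5.79% of all 19571 genes tested were higher and 3.88% lower. The median change was 0.57 over the 34 genes and 0.01 over all genes. All 13 were positive under every alternative run, including the other scalings. Leaving out LPS female 1, LPS male 1 or LPS male 2 alone left 0 calls (adjusted p of the 13 from 0.0632 to 0.135), where at most 0.0204% of all genes were higher and 0.092% lower. Leaving out LPS+DMA male 2 gave 6 higher and 0 lower, where 3.34% of all genes were higher and 2.38% lower, and leaving out LPS female 2 gave 16 higher and 3 lower, where 9.48% of all genes were higher and 8.22% lower. With the PBS libraries left out of the fit, 0 passed as well, where 0.00511% of all genes were higher and 0.0204% lower. With no filter on low values, 0 passed too, where 0.0932% of all genes were higher and 0.141% lower. Without the 4 libraries with Gabra6 of at least 1 FPKM, 0 of the 34 genes passed in the same test (1 at an unadjusted p under 0.05, as 3.7% of all genes were), where 0.0255% of all genes were higher and 0% lower, and the median change of the 13 was 0.38, against 1.36 with all libraries. That comparison leaves LPS with female 2 alone, which is then assumed to vary like the other groups, and the part of tissue content in the 13 changes cannot be told apart from that of treatment.

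Among the pore subunits of AMPA receptors, Gria1, Gria2 and Gria3 were higher in LPS+DMA than in LPS. Gria2 (ENSMUSG00000033981, chr3:80588757-80710142, minus strand, GRCm39) encodes the subunit whose RNA-edited form keeps calcium out of the channel. It stood at 48.7, 49.9, 37.1 and 39.95 FPKM in LPS+DMA, 17.3, 34.97, 13.2 and 15.5 FPKM in LPS, and 30.5, 45.1, 31.01 and 29.2 FPKM in PBS. Each LPS+DMA library was above each LPS library, LPS female 2 was higher than the other 3 LPS libraries, and the PBS values overlapped both arms. The change was 1.17 (SE 0.20, adjusted p = 0.0188), and 0.53 without the 4 libraries.

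Gria1 (chr11:56902213-57221070, plus strand), which pairs with GluA2 in most forebrain AMPA receptors and is inserted during synaptic potentiation, had 70, 87.1, 71.02 and 101 FPKM in LPS+DMA, 53.1, 68.01, 29.4 and 40.3 FPKM in LPS, and 56.5, 79.9, 60.03 and 50.1 FPKM in PBS. The LPS+DMA and LPS values did not overlap, and both LPS males were lower than every PBS library. The change was 0.82 (SE 0.21, adjusted p = 0.0367). Gria3, on the X chromosome, had 33.9, 26.5, 19.2 and 26.6 FPKM in LPS+DMA, 12.5, 23.1, 11.98 and 11.9 FPKM in LPS, and 19.8, 28.8, 18.6 and 21.7 FPKM in PBS. LPS female 2 lay within the range of LPS+DMA and the other 3 LPS libraries lay below every library of the other arms, with a change of 0.82 (SE 0.19, adjusted p = 0.0279).

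Gria4 (chr9:4417896-4796234, minus strand), a subunit of cerebellar cells and interneurons, had 22.2, 17.1, 14.7 and 20.3 FPKM in LPS+DMA, 43.5, 17.5, 32.5 and 43.1 FPKM in LPS, and 38.9, 23.2, 21.3 and 25.1 FPKM in PBS. The 4 libraries with a cerebellar signal held the highest values, 32.5 to 43.5 FPKM, and the other 8 lay between 14.7 and 25.1 FPKM. Within those 8, values were 14.7 to 22.2 FPKM in LPS+DMA, 17.5 in LPS and 21.3 to 25.1 in PBS. The change between LPS+DMA and LPS was -0.78 (SE 0.28, adjusted p = 0.0996), and 0.11 without those 4 libraries.

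The makeup of the AMPA family follows from these levels. Gria2 made up 25.7 ± 3.07% of summed AMPA subunit FPKM in LPS+DMA, 16.8 ± 5.09% in LPS and 23.3 ± 1.88% in PBS (SD, n = 4 each). Gria4 made up 10.8 ± 1.36% in LPS+DMA, 30.7 ± 12.5% in LPS and 19 ± 5.84% in PBS. By library, the Gria4 share was 12.7%, 9.46%, 10.4% and 10.8% in LPS+DMA, 34.4%, 12.2%, 37.3% and 38.9% in LPS, and 26.7%, 13.1%, 16.3% and 19.9% in PBS, so that LPS female 2 lay among the LPS+DMA libraries.

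In all, 3 of the 7 NMDA receptor genes were higher in LPS+DMA than in LPS. Grin1 (ENSMUSG00000026959, chr2:25181193-25209199, minus strand) encodes the glycine-binding subunit present in every NMDA receptor. It stood at 37.2, 36.3, 47.2 and 40.9 FPKM in LPS+DMA, 23.1, 28.5, 22.02 and 24.6 FPKM in LPS, and 30.5, 37.3, 31.3 and 30.4 FPKM in PBS. The LPS libraries were the 4 lowest of the 12, below each PBS library, and the LPS+DMA values lay above the LPS values without overlap. The change was 0.70 (SE 0.12, adjusted p = 0.0192), and 0.46 without the 4 libraries with a cerebellar signal.

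Grin2b (chr6:135690231-136150509, minus strand), the glutamate-binding subunit prominent in forebrain and early life, had 40.8, 44.4, 24.9 and 44.8 FPKM in LPS+DMA, 5.51, 36.9, 4.03 and 3.12 FPKM in LPS, and 17.9, 36.4, 20.1 and 21.1 FPKM in PBS. In LPS female 2 it was at the level of LPS+DMA, and the other 3 LPS libraries, at 3.12 to 5.51 FPKM, were lower than every other library. Its change was the largest of the 34 genes, 2.195 (SE 0.50, adjusted p = 0.02696), and 0.29 without the 4 libraries. Grin2a, the subunit that gains ground as synapses mature, had 13.4, 10.3, 9.56 and 17.4 FPKM in LPS+DMA, 3.51, 9.61, 2.94 and 2.999 FPKM in LPS, and 8.29, 10.5, 6.91 and 7.67 FPKM in PBS, with a change of 1.35 (SE 0.28, adjusted p = 0.02195). LPS+DMA male 1 (9.564 FPKM) and LPS female 2 (9.609 FPKM) make the only overlap between those 2 arms.

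Grin2c (chr11:115139995-115158069, minus strand), the subunit of mature cerebellar granule cells, ran the other way without passing the test. It had 7.12, 9.01, 5.71 and 9.51 FPKM in LPS+DMA, 22.6, 7.65, 9.802 and 26.02 FPKM in LPS, and 25, 8.68, 7.88 and 6.96 FPKM in PBS, and the 4 libraries with a cerebellar signal (9.80 to 26.0 FPKM) lay above the other 8 (5.71 to 9.51 FPKM). The change was -0.85 (SE 0.42, adjusted p = 0.213), and 0.08 without those libraries. Among the 4 glutamate-binding subunits, Grin2b made up 62.6 ± 4.14% of summed FPKM in LPS+DMA, 27.5 ± 25.7% in LPS and 50.1 ± 12.3% in PBS, and Grin2c 12.8 ± 1.08% in LPS+DMA, 50.3 ± 26.9% in LPS and 24.8 ± 14.6% in PBS. The Grin2c share by library was 11.3%, 13.6%, 13.6% and 12.5% in LPS+DMA, 66.99%, 13.6%, 47.02% and 73.4% in LPS, and 46.5%, 15.01%, 20.1% and 17.4% in PBS.

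**Figure D2:**
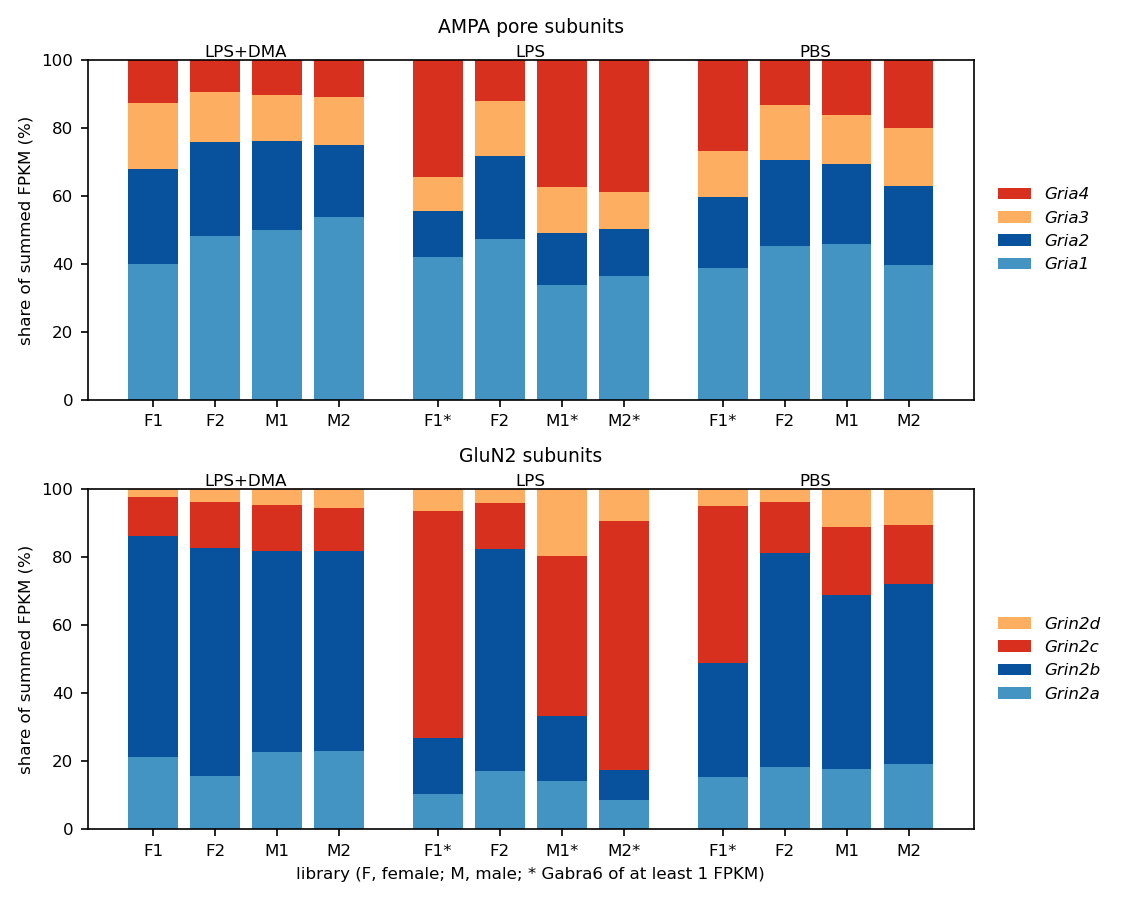
Stacked bars give each subunit's percentage of the summed FPKM of its family in each library, for AMPA pore subunits above and glutamate-binding NMDA subunits below, with asterisks at the 4 libraries with Gabra6 of at least 1 FPKM. Grin2c holds 46.5% to 73.4% of the lower bars in those 4 libraries and 11.3% to 20.1% in the other 8.

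Grin2d, a subunit of brainstem and interneurons, and the glycine-binding subunits Grin3a and Grin3b did not pass the test, with changes of -0.20 (SE 0.18, adjusted p = 0.508), -0.19 (SE 0.26, adjusted p = 0.657) and -0.55 (SE 0.19, adjusted p = 0.0803). Grin3b overlaps Tmem259 on the opposite strand, whose reads came to 4880% of its own, and Grin2d overlaps Kdelr1, at 210%. The labels' protocols describe library preparation with and without strand marking and do not say which applied, so these 2 genes are uncertain. The antisense partners of Cnih2 (Yif1a, 14.2%) and Grm7 (Gm20387, 5.39%) were smaller, and those of the other members with one were under 5%.

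The 250 bases before the transcription start are shown for Gria2 and Grin1, which were higher in LPS+DMA, and for Gria4 and Grin2c of the same families, which were not. They come from RefSeq's promoter table for build GRCm38.p6, which held 23 of the 35 genes. They lie at chr3:80802836-80803085 on the minus strand for Gria2, chr2:25319188-25319437 on the minus strand for Grin1, chr9:4796235-4796484 on the minus strand for Gria4 and chr11:115267244-115267493 on the minus strand for Grin2c. Capitals mark the GC box GGGCGG, the CCAAT box CCAAT and the E-box CACGTG, each on either strand.
Gria2: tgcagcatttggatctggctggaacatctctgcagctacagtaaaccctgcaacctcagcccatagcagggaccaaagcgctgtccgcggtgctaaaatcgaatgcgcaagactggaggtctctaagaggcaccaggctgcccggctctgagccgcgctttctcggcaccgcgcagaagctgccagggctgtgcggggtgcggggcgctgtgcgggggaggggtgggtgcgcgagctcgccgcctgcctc
Grin1: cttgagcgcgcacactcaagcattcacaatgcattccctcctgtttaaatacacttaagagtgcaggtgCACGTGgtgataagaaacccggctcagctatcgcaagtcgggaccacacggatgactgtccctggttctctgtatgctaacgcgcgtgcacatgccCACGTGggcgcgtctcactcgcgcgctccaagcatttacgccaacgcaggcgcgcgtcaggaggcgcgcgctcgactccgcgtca
Gria4: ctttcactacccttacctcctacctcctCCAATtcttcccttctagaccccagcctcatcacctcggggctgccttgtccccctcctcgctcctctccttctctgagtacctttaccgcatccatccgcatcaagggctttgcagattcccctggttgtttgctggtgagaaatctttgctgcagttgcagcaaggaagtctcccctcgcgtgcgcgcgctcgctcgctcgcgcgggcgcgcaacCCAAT
Grin2c: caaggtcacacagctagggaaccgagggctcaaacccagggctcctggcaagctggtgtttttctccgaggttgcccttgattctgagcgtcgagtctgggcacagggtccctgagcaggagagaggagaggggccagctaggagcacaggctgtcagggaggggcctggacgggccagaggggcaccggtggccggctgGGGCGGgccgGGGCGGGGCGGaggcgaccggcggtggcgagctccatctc
The window of Grin1 held 2 E-boxes, that of Gria4 2 CCAAT boxes and that of Grin2c 3 GC boxes, of which 2 overlap. The window of Gria2 held none of the 3 motifs. Over the 23 genes, 12 held a GC box, 8 a CCAAT box and 2 an E-box (Grin1 and Cnih3), against 32.7%, 33.8% and 6.02% of all 32851 windows of this length. The median GC content was 62.0% over the 23 windows and 52.4% over all, and a match describes letters only.

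Of the kainate receptor subunits, Grik5 passed the test. Grik5 (chr7:24709274-24771771, minus strand) encodes a high-affinity subunit that needs a partner such as GluK2 to form a channel. It stood at 28.32, 39.57, 46.19 and 33.17 FPKM in LPS+DMA, 12.53, 25.63, 11.52 and 11.72 FPKM in LPS, and 17.84, 28.28, 22.95 and 18.72 FPKM in PBS. The LPS+DMA and LPS values did not overlap, and the lowest LPS+DMA library lay just above the highest PBS library. The change was 1.27 (SE 0.25, adjusted p = 0.0213), and 0.50 without the 4 libraries. Grik3, a channel-forming subunit, came close with 0.76 (SE 0.23, adjusted p = 0.0594), and Grik1, Grik2 and the high-affinity subunit Grik4 had changes of -0.20, 0.20 and 0.25. Grik5 made up 58.1 ± 10.3% of kainate subunit FPKM in LPS+DMA, 43.96 ± 5.79% in LPS and 47.9 ± 1.87% in PBS (SD, n = 4 each). LPS female 2 (52.2%) lay within the LPS+DMA range of 48.7% to 72.55%, and LPS female 1, male 1 and male 2 were at 39.2% to 43.5%. Grid1, the delta receptor that binds cerebellins across the synapse, was at 9.75 to 13.8 FPKM in LPS+DMA, 6.30 to 11.4 in LPS and 9.06 to 10.8 in PBS, with a change of 0.57 (SE 0.17, adjusted p = 0.0563).

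Grm5, which couples to phospholipase C and calcium release, was the metabotropic receptor gene that passed. It had 23.1, 32.1, 17 and 24.5 FPKM in LPS+DMA, 7.03, 21.1, 6.46 and 5.09 FPKM in LPS, and 12, 20.1, 15.4 and 14 FPKM in PBS. LPS female 2 lay within the LPS+DMA range, the other 3 LPS libraries were the lowest of all 12, and the change was 1.38 (SE 0.31, adjusted p = 0.0253). Grm4 (chr17:27641361-27740377, minus strand), a presynaptic inhibitory receptor of cerebellar granule cells, had 5.49, 7.24, 2.62 and 5.704 FPKM in LPS+DMA, 21.9, 4.68, 8.12 and 21.3 FPKM in LPS, and 22.96, 8.04, 4.76 and 5.42 FPKM in PBS. As with Grin2c, the 4 libraries with a cerebellar signal lay above the other 8, and the change of -1.09 (SE 0.50, adjusted p = 0.181) became 0.37 without them.

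The presynaptic and glial inhibitory receptor Grm3 had 24.2, 24.3, 3.35 and 24.6 FPKM in LPS+DMA, 8.09, 15.5, 9.47 and 8.303 FPKM in LPS, and 12.1, 13.2, 14.8 and 16.3 FPKM in PBS. LPS+DMA male 1 was the lowest library of all 12 while the other 3 LPS+DMA libraries were the 3 highest, and the change was 0.57 (SE 0.47, adjusted p = 0.453). Without that library Grm3 passed the test with 1.203 (adjusted p = 0.0293), where 4.73% of all genes were higher and 2.96% lower. LPS+DMA male 1 also had the lowest mature oligodendrocyte (375 FPKM) and microglial (57.7 FPKM) marker sums of its arm. The rest of the arm had 763 to 871 and 82.3 to 96.6 FPKM. Its astrocyte sum of 512 FPKM lay within their 509.5 to 628 FPKM. The part of glial content in the Grm3 values was not tested. Grm2, a presynaptic autoreceptor, had a change of 0.92 (SE 0.39, adjusted p = 0.1495), and the presynaptic receptors Grm7 and Grm8 had 0.38 and 0.12.

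**Figure D3:**
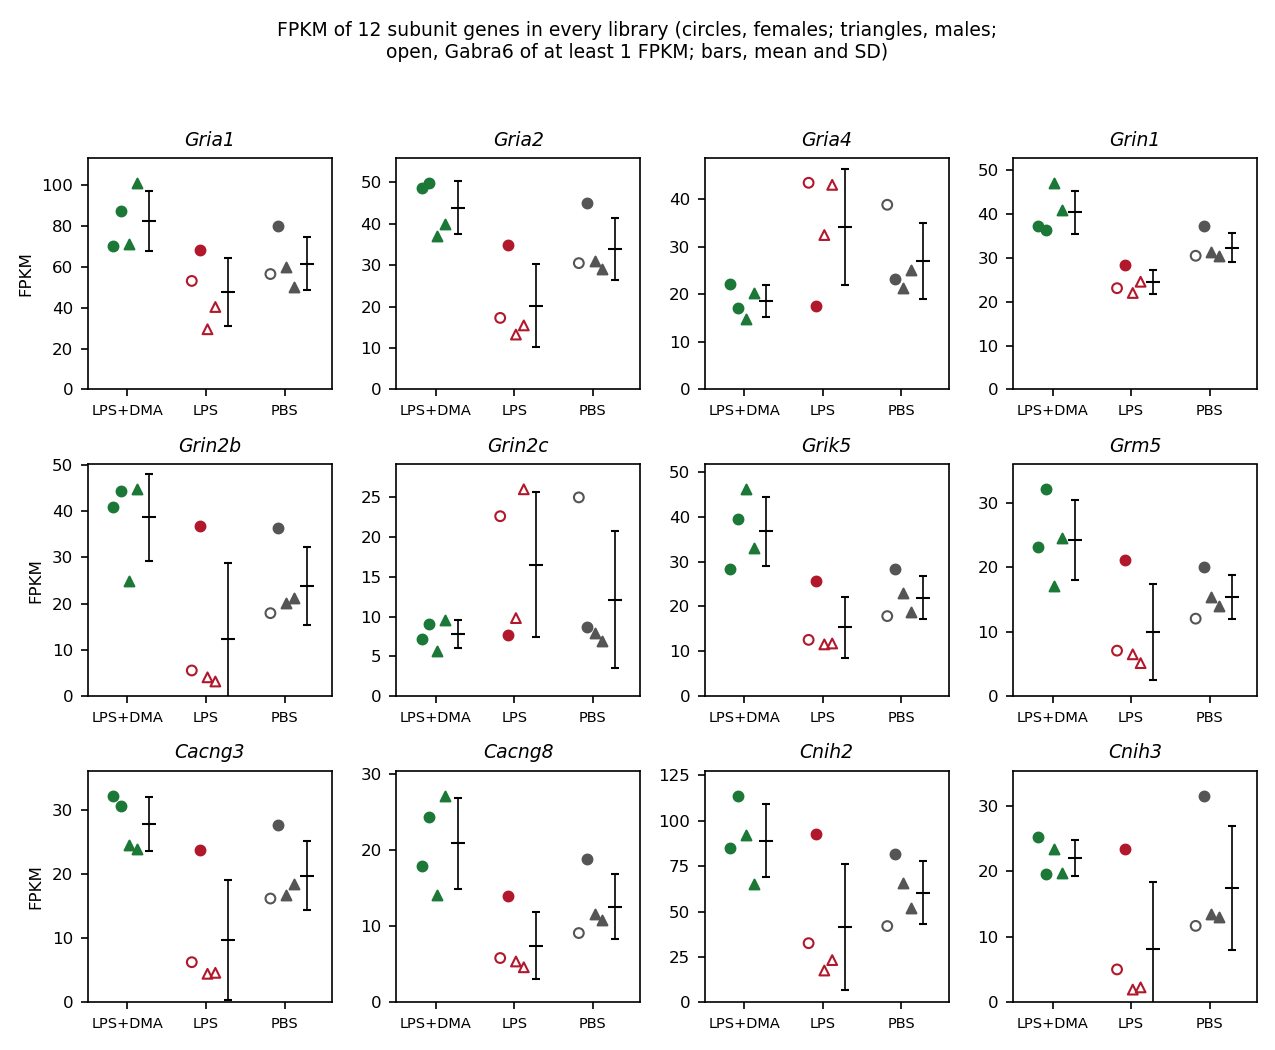
FPKM of 12 genes in each library of LPS+DMA, LPS and PBS, with circles for females, triangles for males, open symbols for the 4 libraries with Gabra6 of at least 1 FPKM, and the mean and SD of each arm (n = 4), drawn down to 0 where the SD passes it. The single filled LPS symbol, female 2, lies at the level of the LPS+DMA libraries for Grin2b, Cnih2 and Cnih3 and below all of them for Gria2, Grin1 and Grik5.

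Among auxiliary subunits of AMPA receptors, 4 of 9 were higher in LPS+DMA than in LPS: the TARPs Cacng3 and Cacng8, and the cornichons Cnih2 and Cnih3. TARPs, transmembrane AMPA receptor regulatory proteins, carry receptors to the synapse and slow their closing. Cacng3 (chr7:122269715-122368616, plus strand), a TARP of the cortex, had 32.2, 30.6, 24.5 and 23.9 FPKM in LPS+DMA, 6.27, 23.7, 4.46 and 4.61 FPKM in LPS, and 16.2, 27.6, 16.7 and 18.4 FPKM in PBS. Cacng8 (chr7:3439199-3464164, plus strand), the main TARP of the hippocampus, had 17.98, 24.40, 14.07 and 27.16 FPKM in LPS+DMA, 5.835, 14.03, 5.381 and 4.619 FPKM in LPS, and 9.116, 18.83, 11.61 and 10.83 FPKM in PBS. For both genes the LPS+DMA and LPS values did not overlap, but LPS female 2 came close to the lowest LPS+DMA library, and the other 3 LPS libraries were below every PBS library. The changes were 1.73 (SE 0.34, adjusted p = 0.0213) for Cacng3 and 1.45 (SE 0.30, adjusted p = 0.0218) for Cacng8, and without the 4 libraries 0.45 and 0.67.

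Cacng8 lies beside Cacng7 (chr7:3381471-3416737, plus strand), a TARP of a second type, with the cerebellum among its sites. Cacng7 had 56.8, 54.5, 58.9 and 50.2 FPKM in LPS+DMA, 67.1, 52.5, 51.6 and 65.5 FPKM in LPS, and 63.2, 71.8, 53.9 and 54.5 FPKM in PBS. The 3 arms overlapped throughout, and the change was -0.09 (SE 0.12, adjusted p = 0.646) with a 95% interval of -0.36 to 0.17. Cacng2 (stargazin, the TARP needed for AMPA receptors in cerebellar granule cells), Cacng4 and Cacng5 had changes of -0.13, 0.31 and -0.04, none past the test. Within the TARP family, Cacng3 made up 19.7 ± 1.83% of summed FPKM in LPS+DMA, 8.36 ± 7.22% in LPS and 15.2 ± 1.97% in PBS, and Cacng7 39.3 ± 4.79% in LPS+DMA, 53.4 ± 7.34% in LPS and 47.5 ± 2.57% in PBS (SD, n = 4 each). LPS female 2, at 19.2% for Cacng3 and 42.4% for Cacng7, lay within the LPS+DMA ranges of 17.5% to 21.95% and 35.5% to 46.25%. LPS female 1, male 1 and male 2 were at 4.03% to 5.41% for Cacng3 and 55.9% to 57.9% for Cacng7.

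Cnih2 (chr19:5142896-5148549, minus strand) and Cnih3 (chr1:181180193-181288206, plus strand) encode cornichons, which help AMPA receptors leave the endoplasmic reticulum and slow their deactivation. Cnih2 had 84.8, 114, 92.4 and 65.4 FPKM in LPS+DMA, 32.6, 92.99, 17.6 and 23.3 FPKM in LPS, and 42.1, 81.7, 65.8 and 52.1 FPKM in PBS. Cnih3 had 25.2, 19.7, 23.4 and 19.8 FPKM in LPS+DMA, 5.04, 23.5, 1.96 and 2.29 FPKM in LPS, and 11.7, 31.6, 13.4 and 13.04 FPKM in PBS. In both, LPS female 2 lay inside the LPS+DMA range and the other 3 LPS libraries were the lowest of the 12. The changes were 1.36 (SE 0.37, adjusted p = 0.0432) for Cnih2 and 1.90 (SE 0.48, adjusted p = 0.03502) for Cnih3, the second largest after Grin2b, and without the 4 libraries they were 0.11 and 0.16. Shisa9, which speeds AMPA receptor desensitisation, had a change of 0.67 (SE 0.23, adjusted p = 0.0832).

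Neto1, a kainate receptor partner that also contacts NMDA receptors, had 18.5, 20.5, 15.5 and 12.4 FPKM in LPS+DMA, 3.78, 14.8, 4.89 and 3.37 FPKM in LPS, and 6.37, 15.3, 7.89 and 9.09 FPKM in PBS. LPS female 2 lay among the LPS+DMA libraries and the other 3 LPS libraries were the lowest of all, with a change of 1.39 (SE 0.34, adjusted p = 0.03198). Its relative Neto2 had 18.1, 17.3, 11.2 and 13.4 FPKM in LPS+DMA, 11.4, 13.9, 9.16 and 13.01 FPKM in LPS, and 12.8, 12.97, 11.2 and 10.5 FPKM in PBS, with overlap between all arms and a change of 0.30 (SE 0.13, adjusted p = 0.146).

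In all, the LPS+DMA and LPS values did not overlap for 6 genes, each higher in LPS+DMA (Gria1, Gria2, Grin1, Grik5, Cacng3 and Cacng8), where 6.26% of all genes tested were higher without overlap and 5.98% lower. Split by Gabra6 in place of treatment, 9 genes were lower in each of the 4 libraries with a cerebellar signal than in each of the other 8: Grin2b, Grik5, Grid1, Grm5, Cacng3, Cacng8, Cnih2, Cnih3 and Neto1. Another 4 were higher in each of those 4 libraries: Gria4, Grin2c, Grin3b and Grm4. Of all genes tested, 4.21% were lower and 3.45% higher in the same way. This split was chosen after the values were seen and is a description without a test.

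**Figure D4:**
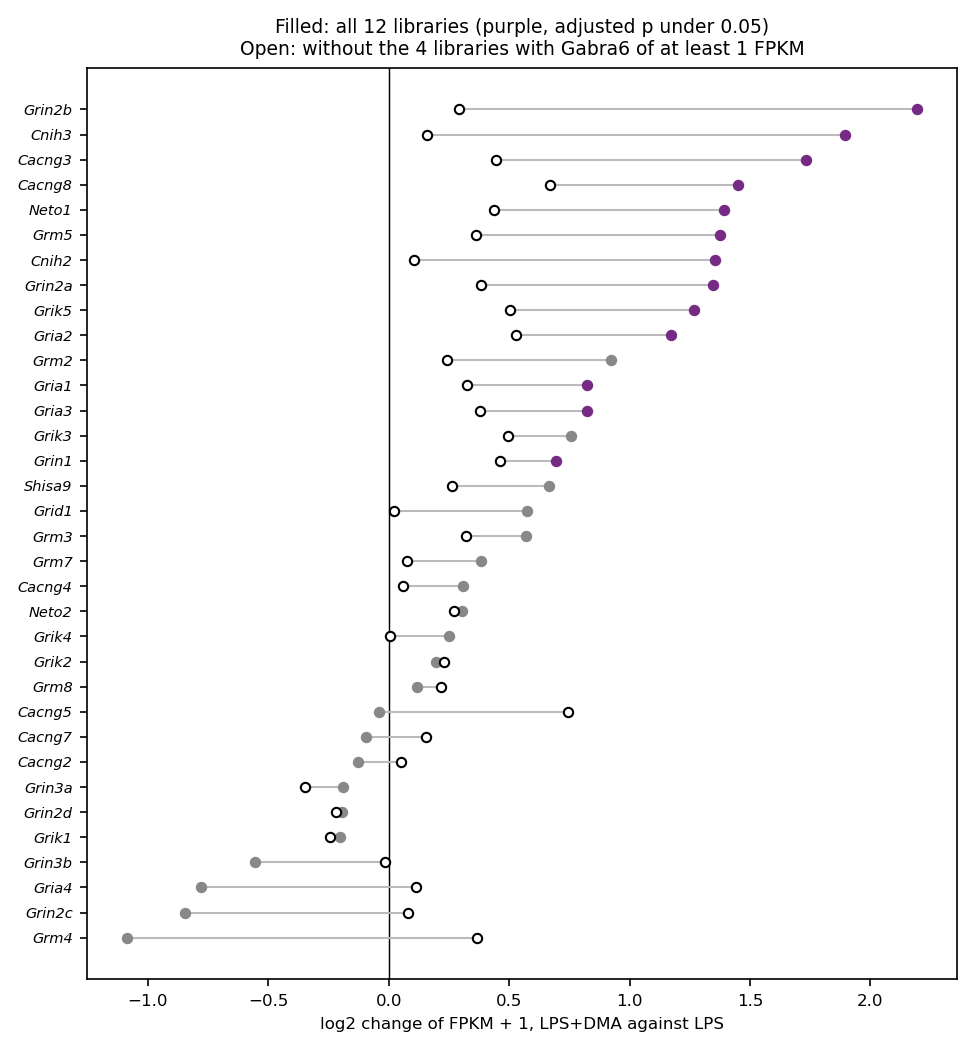
Log2 change of each of the 34 genes in LPS+DMA against LPS, with filled symbols for all 12 libraries (purple where the adjusted p was under 0.05) and open symbols without the 4 libraries with Gabra6 of at least 1 FPKM. The 13 purple symbols lie between 0.70 and 2.195 and their open partners between 0.11 and 0.67, and Gria4, Grin2c and Grm4 change sign, as do Cacng2, Cacng5 and Cacng7, which lie near 0.

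LPS against PBS asks what repeated LPS changed. None of the 34 genes passed the limma test (0 of 34, with 13 at an unadjusted p under 0.05, as 11% of all genes were, and 0 by voom), where 0.0102% of all genes tested were higher and 0% lower. The median change was -0.39 over the 34 genes and -0.01 over all genes. Grin1 was the gene whose LPS and PBS values did not overlap, lower in each LPS library, where 3.59% of all genes were higher and 3.3% lower without overlap. Its change was -0.39 (SE 0.12, adjusted p = 0.321). The changes with the largest size were those of Grin2b at -1.50 (SE 0.50, adjusted p = 0.328), Cnih3 at -1.47 (SE 0.48, adjusted p = 0.324), Cacng3 at -1.24 (SE 0.34, adjusted p = 0.297) and Grm2 at -1.04 (SE 0.39, adjusted p = 0.374). Without LPS female 2, 9 genes passed, all lower in LPS: Gria2, Gria3, Grin2a, Grin2b, Grik5, Grm5, Cacng3, Cnih2 and Cnih3, where 0.955% of all genes were higher and 2.48% lower. The LPS libraries then left, female 1, male 1 and male 2, all carry a cerebellar signal, while in PBS only female 1 does. Without the 4 libraries with a cerebellar signal, 0 passed (1 at an unadjusted p under 0.05, as 2.86% of all genes were), where 0% of all genes were higher and 0.0204% lower. With all libraries, the 8 cortical and hippocampal markers were all negative in LPS against PBS (median -1.50) and the 8 cerebellar (1.82) and 8 choroid plexus markers (1.46) all positive, with 0 passing, and their part in these values was not tested.

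LPS+DMA against PBS asks whether brains given both agents differed from controls. None of the 34 genes passed (0 of 34 in limma, 6 at an unadjusted p under 0.05, as 11.4% of all genes were, and 0 by voom), where 0% of all genes tested were higher and 0.0102% lower. The median change was 0.21 over the 34 genes and 0 over all genes. Grik5, at 0.72 (SE 0.25, adjusted p = 0.374), was the gene whose LPS+DMA and PBS values did not overlap, higher in each LPS+DMA library, where 3.71% of all genes were higher and 2.93% lower without overlap. Neto1 at 0.77 (SE 0.34, adjusted p = 0.428), Cacng8 at 0.69 (SE 0.30, adjusted p = 0.426) and Grin2b at 0.69 (SE 0.50, adjusted p = 0.598) had changes of like size, with overlap. The 8 striatal markers were all positive in this comparison (median 1.86, 0 passing), and by library their sum was 417, 988, 693 and 50.8 FPKM in LPS+DMA, against 73.2 to 114 in PBS. LPS+DMA male 2 was thus below every PBS library and the other 3 above, and the part of striatal content in these changes was not tested. This comparison shares its LPS+DMA libraries with the first and its PBS libraries with the second, and a p that misses the threshold does not show that the arms were alike.

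**Figure D5:**
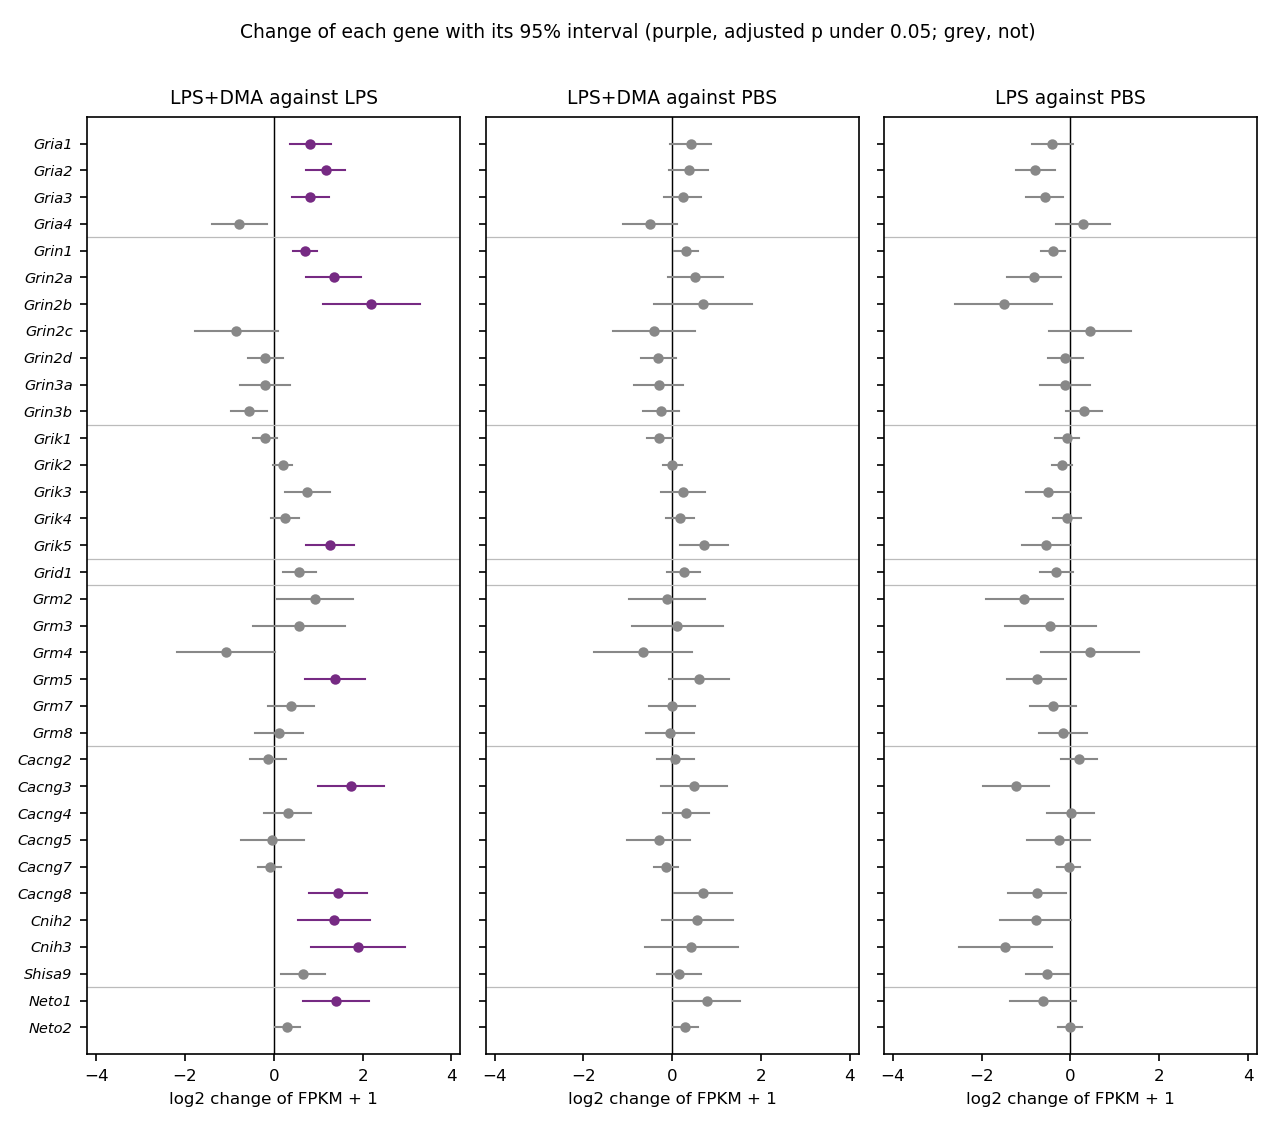
Log2 change of FPKM + 1 with its 95% interval for the 34 tested genes in the 3 comparisons, purple where the adjusted p was under 0.05. The 13 purple genes stand in the LPS+DMA against LPS panel, with intervals above 0, and the same genes lie at -0.39 to -1.50 in LPS against PBS and at 0.24 to 0.77 in LPS+DMA against PBS.

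The treatment changes were also compared between sexes. In 0 of 34 genes did the change differ between males and females in any of the 3 comparisons by the limma interaction test, where 0% of all genes tested did. At an unadjusted p under 0.05, Gria1 (0.90 higher change in males, SE 0.36, adjusted p = 0.853) and Cnih3 (1.92, SE 0.84, adjusted p = 0.853) differed in LPS+DMA against LPS, and Cacng4 (-1.12, SE 0.38, adjusted p = 0.838) in LPS+DMA against PBS, as did 5.15% and 5.67% of all genes in those 2 comparisons. Both LPS males carry a cerebellar signal and 1 of the 2 LPS females does, so sex and tissue content cannot be told apart here.

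Other genes of glutamate signalling were counted from 4 lists. Of 20 genes of the postsynaptic scaffold and receptor trafficking, 10 were higher and 0 lower in LPS+DMA than in LPS, with a median change of 0.83, where 5.79% of all genes tested were higher and 3.88% lower, with a median of 0.01. The smallest p-values belonged to Camk2b, a subunit of the calcium-dependent kinase of the spine, at 0.94 (SE 0.17, adjusted p = 0.0192), the scaffold gene Homer1 at 1.78 (SE 0.32, adjusted p = 0.0197) and Dlgap2, which links scaffold proteins, at 1.92 (SE 0.36, adjusted p = 0.0203). Of 21 genes of AMPA receptor assembly and transsynaptic contact, 5 were higher and 0 lower, among them Olfm1 at 0.96 (SE 0.24, adjusted p = 0.0336), the synaptic adhesion gene Lrrtm4 at 0.93 (SE 0.24, adjusted p = 0.0361) and Nptx2, a secreted pentraxin that clusters AMPA receptors, at 1.54 (SE 0.42, adjusted p = 0.0425).

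Of 15 genes of glutamate uptake, recycling and co-agonist supply, 3 were higher and 1 lower. The glutamate transporter genes Slc1a1, of neurons, and Slc1a2, of astrocytes, had changes of 0.79 (SE 0.17, adjusted p = 0.0244) and 0.83 (SE 0.22, adjusted p = 0.0395), and Slc7a10, which carries the co-agonist D-serine, had -1.38 (SE 0.27, adjusted p = 0.0213). Of 18 genes downstream of metabotropic receptors and calcium, 6 were higher and 0 lower, with the calcineurin subunits Ppp3ca at 1.31 (SE 0.20, adjusted p = 0.0182) and Ppp3cb at 0.68 (SE 0.14, adjusted p = 0.0218) and the phospholipase Plcb1 at 1.47 (SE 0.26, adjusted p = 0.0192). Together the 4 lists held 24 higher and 1 lower of 74 genes, where 5.79% of all genes tested were higher and 3.88% lower. Without LPS female 1, LPS male 1 or LPS male 2 alone, 0 of the 74 passed, where at most 0.0204% of all genes were higher and 0.092% lower. Without LPS female 2 the counts were 37 higher and 10 lower, where 9.48% of all genes were higher and 8.22% lower. Leaving out the 4 libraries with a cerebellar signal leaves LPS with 1 library, so calls of that run are not counted for these lists. In LPS+DMA against PBS and in LPS against PBS, 0 genes of the 4 lists passed. Tbr1, a transcription factor of cortical neurons, had 24.5, 14.7, 9.07 and 15.1 FPKM in LPS+DMA, 1.19, 13.3, 0.06695 and 0.0512 FPKM in LPS, and 8.63, 14.5, 9.53 and 8.83 FPKM in PBS, lower in LPS female 1, LPS male 1 and LPS male 2 than in every other library, with a change of 2.71 (SE 0.56, adjusted p = 0.0219). Of the 8 neuronal markers, Syt1 at 1.44 (SE 0.28, adjusted p = 0.0213) and Rbfox3 at 0.51 (SE 0.13, adjusted p = 0.0367) were higher, Tubb3 at -0.56 (SE 0.11, adjusted p = 0.0213) and Stmn2 at -0.75 (SE 0.15, adjusted p = 0.0214) were lower, and the other 4 did not pass. The part of these markers in the results was not tested.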

How the data were processed

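RNA-seq libraries of 12 mouse brains were compared, 4 per arm, with 2 females and 2 males in each. The authors deposited a table of FPKM for 56748 genes. The submitters' processing notes list the build GRCm39 and, with no role or order, STAR, GATK, edgeR 4.0.16, DESeq2 1.42.0, featureCounts 2.0.6, HISAT2 2.2.1 and fastp. FPKM times gene length was a whole number of reads (tolerance 0.1) in 100% of the values below 1000 reads, and these reads gave the depths. The median-of-ratios factor of the deposited FPKM was 1.01 in every library, so the FPKM carry that scaling in place of a plain scaling to depth.

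Genes with at least 0.5 FPKM in at least 2 libraries (19571) were tested as log2(FPKM + 1) with limma 3.58.1 in R 4.3.3, in 1 additive model of sex and treatment over 12 libraries with trended, robust variances. This scale understates the change of low genes. Adjusted p-values are Benjamini-Hochberg values over all 19571 genes, and a call is an adjusted p under 0.05. Differences between sexes came from 1 mean per arm and sex. The script was tested on simulated data. Shares are of summed FPKM, and the floor is 3 reads.

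The members and gene lists were chosen with earlier results of these data known. Up to 3 genes per list of other glutamate signalling genes were named, those with the smallest p in LPS+DMA against LPS. The tissue markers Gabra6 and Tbr1 were named too, as were the neuronal markers that passed the limma test in that comparison. Promoter sequences are from RefSeq (GRCm38.p6) and gene coordinates from the deposited table (GRCm39). Each mouse gave 1 library. Counts of any 2 libraries differed by far more than sampling noise (66 pairs, smallest ratio of chi-square to its degrees of freedom 31.97), so none repeats another. Such a check cannot tell pieces of 1 brain from different brains. Counting each library as its own sample therefore rests on the labels.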

Additional observations from a re-analysis of the deposited data

Results flagged for a closer look

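Among the 4 libraries of an arm, 1 library stood apart from the other 3 (a gap over range above Dixon's critical value for 4 samples) in 16 of 102 combinations of gene and arm. Chance gives about 1 in 20 for independent normal values, but these genes share the same 12 libraries. The share was 15.7% here, against 9.79% over all 19571 genes tested. LPS female 2 was such a high library in 29.4% of the 34 genes and in 5.1% of all genes. In 10 of the 16, LPS female 2 was the high library, here with the range of the other 3 LPS libraries: Gria3 (23.1 FPKM, against 11.9 to 12.5), Grin2a (9.61 FPKM, against 2.94 to 3.51), Grin2b (36.9 FPKM, against 3.12 to 5.51), Grik5 (25.6 FPKM, against 11.5 to 12.5), Grm5 (21.1 FPKM, against 5.09 to 7.03), Cacng3 (23.7 FPKM, against 4.46 to 6.27), Cacng8 (14.03 FPKM, against 4.62 to 5.84), Cnih3 (23.5 FPKM, against 1.96 to 5.04), Shisa9 (13.4 FPKM, against 6.796 to 6.99), Neto1 (14.8 FPKM, against 3.37 to 4.89). LPS female 2 is the LPS library with Gabra6 at 0 FPKM, and ribosomal RNA took 0.0389% of its reads, against 2.88% to 9.79% in the other 11 libraries. The part of either in these values was not tested.

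PBS female 2 was the high PBS library for Gria2 (45.1 FPKM against 29.2 to 31.01 in the other 3), Grin1 (37.3 FPKM against 30.4 to 31.3 in the other 3), Grm2 (12.4 FPKM against 3.96 to 5.34 in the other 3) and Cnih3 (31.6 FPKM against 11.7 to 13.4 in the other 3). PBS female 1, with Gabra6 at 74.6 FPKM, was high for Grin2c (25 FPKM against 6.96 to 8.68 in the other 3). LPS+DMA male 1 was low for Grm3 (3.35 FPKM against 24.2 to 24.6 in the other 3).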

How the results depend on the processing

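Of the 13 genes called higher in LPS+DMA than in LPS, 0 passed with no filter, with the libraries of the 2 arms alone, without the 4 libraries with a cerebellar signal, with a covariate for cortical less cerebellar markers, with covariates for choroid plexus and blood markers, or in females alone, and 8 passed in males alone, where 3.2% of all genes were higher. Their changes stayed positive in each, with medians of 1.36 (no filter and 2 arms), 0.38, 0.54, 0.71, 0.94 and 1.67 in that order, and adjusted p from 0.0515 to 0.0949 with no filter and from 0.0724 to 0.0947 with 2 arms. Over all genes, 0.0932% were higher and 0.141% lower with no filter, and 0.00511% and 0.0204% with 2 arms. With the covariate for cortical less cerebellar markers, 0% of all genes were higher and 0.0102% lower. With the choroid plexus and blood covariates, and in females alone, 0% were higher and 0% lower. No filter tests more genes (35401), and the 2 arms leave fewer libraries, but the cause of the lost calls was not tested in any of these runs. Leaving out 1 library gave 0 to 16 higher calls: 0 without LPS female 1, LPS male 1 or LPS male 2, 6 without LPS+DMA male 2 and 16 without LPS female 2. Lower calls in this comparison, 0 with all libraries, were 1 (Gria4) under plain per-million scaling, and 0 to 3 with 1 library left out, the 3 being Gria4, Grm4 and Grin3b without LPS female 2. In LPS against PBS they were 0 to 9, the 9 again without LPS female 2. Plain per-million scaling moved the median change of all genes by -0.12 in LPS+DMA against LPS and gave 589 higher and 2285 lower genes, against 1133 and 759. Same-numbered libraries of a sex correlated at -0.02 to 0.39 over 12 pairs, 6 of them above 0.1, after the mean of each arm was removed. Libraries with different numbers were not compared, so these values do not settle whether the numbers pair the mice. The main model treats the libraries as unpaired. A replicate block gave 16 higher calls and 1 lower call (Gria4), where 5.99% of all genes were higher and 4.43% lower. Over 2751 values of single genes in the 3 comparisons under the alternatives, 0 reversed a call, 152 lost one and 26 gained one. Only the 13 genes in LPS+DMA against LPS, each under 27 alternatives, had a call to lose, so all 152 losses lie there. Another 121 values changed sign with no call in either run. In LPS without the 4 libraries, which leaves 1 library, the shares were 24.4% for Gria2 and 12.2% for Gria4 of AMPA subunits. Of the 4 glutamate-binding NMDA subunits, Grin2b then made up 65.4% and Grin2c 13.6%. Depth limits Grin3b (5 to 144 reads) and Grm6 (0 reads) most.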
